A study of Mus musculus with 6 samples.

Results

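Insulin and the insulin-like growth factors act on muscle fibres through a chain of kinases that was examined here at the level of its transcripts. The genes described are 47 mouse genes chosen by name for their place in that chain: the ligand gene Igf1 and its binding proteins, the receptors, their substrates and adaptors, phosphoinositide 3-kinase (PI3K) and Akt, the phosphatases that oppose them, Akt substrates, and the mTOR complexes with their regulators and outputs. All 47 were found by gene identifier among the 49315 genes of the count tables, and all 47 passed the low-count filter that left 16650 genes for testing. The data are RNA sequencing counts of gastrocnemius, the calf muscle, from mice of a mixed C57BL/6 129 strain at 3 months of age. There were 3 libraries labelled WT and 3 labelled mKO, the latter from mice with Hnrnpu knocked out in muscle. Hnrnpu encodes a nuclear RNA-binding protein, and the question named by the series is its role in gene expression and splicing in skeletal muscle; splicing was not analysed here. The sources used here do not name the driver of the deletion, the deleted exons or the sex of the animals, nor say whether each library is 1 animal. The p-values below therefore describe library-to-library spread, which may be technical in part.

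When insulin or IGF1 binds its receptor, the receptor phosphorylates IRS proteins, which recruit PI3K. The lipid that PI3K makes brings Akt to the membrane, where it is activated, and Akt then drives glucose uptake and glycogen synthesis and releases mTORC1 from its inhibitor, the TSC complex. mTORC1, which also senses amino acids through Rag GTPases at the lysosome, promotes protein synthesis by phosphorylating S6 kinase and the 4E-BP proteins, and in muscle this chain is known for supporting fibre growth. Most of its control is by phosphorylation, which RNA counts do not measure.

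Library totals ran from 32108684 to 42344238 counts. Levels are in CPM, counts relative to library sizes scaled with TMM factors (which match libraries on the bulk of their genes), fold changes are mKO-labelled over WT on the log2 scale with their standard error (SE), and every adjusted p comes from edgeR's quasi-likelihood test with Benjamini-Hochberg adjustment over the 16650 genes, with a threshold of 0.05. Hnrnpu itself had 233 to 247 CPM in WT and 205 to 210 CPM in mKO-labelled libraries (log2 -0.20, SE 0.10, adjusted p = 0.147), and its log2 change was 0.27 (adjusted p = 0.0402) when libraries were scaled by their totals. A count over all exons therefore did not check the labels, and directions below are those of the libraries as labelled. The 6 muscle fibre markers summed to 251100 to 265800 CPM in WT and 157300 to 190800 CPM in mKO-labelled libraries. Of these, 4 fell and 1 rose (83.3%, against 37.0% of all genes). Ttn made up much of the sums, with means of 172800 and 143900 CPM, and did not pass (adjusted p = 0.126). Mean Myh4 went from 42750 CPM in WT to 14360 CPM in mKO-labelled libraries. Scaling by library totals moved the median log2 change of all genes up by 0.465. It turned 3022 higher and 3144 lower calls into 8159 and 1124 (87.9% higher), so each change is relative to the bulk of genes. Calls among the 47 genes that this scaling ends are named beside them.

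Members of the chain changed in both directions, and some related genes moved apart. Of the 47, 14 rose and 9 fell, 23 in all (48.9%), where 37.0% of all genes tested were called; 18.2% of all genes were called higher and 18.9% lower. Members and lists were chosen with earlier results of these data known, so such shares only describe the lists. The median log2 change of the 47 was 0.04, against 0.02 for all genes tested. The median absolute log2 change was 0.37, against 0.39 for all genes. Counted without a test, 27 of the 47 (57.4%) had no overlap between groups, against 49.3% of all genes. Without overlap, 14 were higher in mKO-labelled libraries, a direction that 25.3% of all genes showed. With library totals 30 members were called higher and 4 lower. The 16 members that this scaling newly called higher were Igfbp4, Igfbp5, Insr, Igf2r, Irs1, Pik3ca, Pik3r3, Pdpk1, Akt2, Phlpp2, Ppp2r5c, Mtor, Tsc1, Tsc2, Ddit4 and Eif4ebp2. Called folds ran from 1.27 to 4.46, and 6 members changed at least 2-fold: the adaptor gene Grb14, Sesn2, Eif4ebp1, Tbc1d1, Grb10 and Ddit4l.

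**Figure D1:**
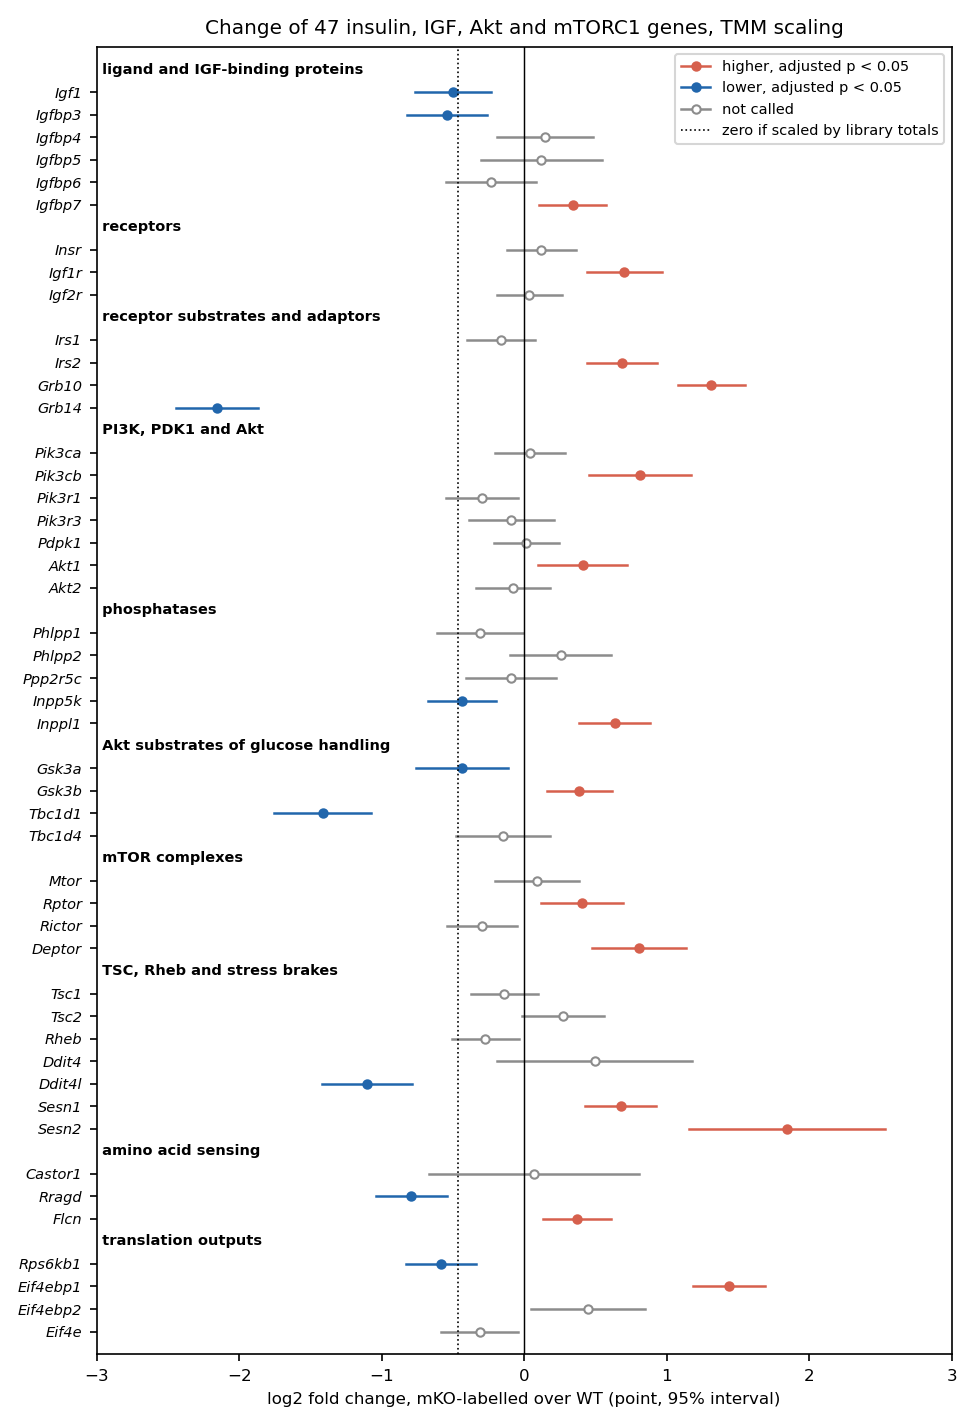
Log2 fold change (mKO-labelled over WT, x axis) of each of the 47 genes, grouped by role, with its 95% interval; filled points passed the test and open points did not, and the dotted line, 0.465 below zero, is where zero would lie with library totals. Grb14 is lowest at -2.16 and Sesn2 highest at 1.84, and most roles hold genes on both sides of zero.

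The promoter windows of 2 pairs of related genes are shown: the adaptors Grb10 and Grb14, which moved in opposite directions and are both among the largest called changes, and the sestrins Sesn2, also among the largest, and Sesn1, added as its relative after its value was seen. Each window holds 250 bases before and 50 after a transcription start listed by RefSeq (GRCm38.p6). Grb10 lies at chr11:12037371-12037670 (minus strand), Grb14 at chr2:65022717-65023016 (minus), Sesn1 at chr10:41810324-41810623 (plus) and Sesn2 at chr4:132510407-132510706 (minus). Grb10 and Sesn1 have 2 listed windows each, and that nearer to the start of the counted gene is given. The listed starts lie 1263 (Grb10), 2221 (Grb14), 639 (Sesn1) and 45 (Sesn2) bases inside the counted genes. For Grb10, Grb14 and Sesn1 the bases before the counted start therefore lie outside the window shown. Capitals mark matches to the motifs searched.
Grb10: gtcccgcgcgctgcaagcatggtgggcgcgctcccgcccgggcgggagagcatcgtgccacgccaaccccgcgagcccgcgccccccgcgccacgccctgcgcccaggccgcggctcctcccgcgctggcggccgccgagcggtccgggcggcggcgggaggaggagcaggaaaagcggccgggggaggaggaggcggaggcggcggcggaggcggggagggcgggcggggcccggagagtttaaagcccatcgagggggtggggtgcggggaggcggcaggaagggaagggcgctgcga
Grb14: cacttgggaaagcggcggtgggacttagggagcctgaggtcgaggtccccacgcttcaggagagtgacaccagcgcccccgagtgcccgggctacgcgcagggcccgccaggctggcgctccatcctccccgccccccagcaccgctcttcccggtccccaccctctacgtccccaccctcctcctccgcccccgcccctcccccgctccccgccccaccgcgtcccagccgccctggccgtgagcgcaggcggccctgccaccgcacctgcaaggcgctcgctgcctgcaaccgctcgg
Sesn1: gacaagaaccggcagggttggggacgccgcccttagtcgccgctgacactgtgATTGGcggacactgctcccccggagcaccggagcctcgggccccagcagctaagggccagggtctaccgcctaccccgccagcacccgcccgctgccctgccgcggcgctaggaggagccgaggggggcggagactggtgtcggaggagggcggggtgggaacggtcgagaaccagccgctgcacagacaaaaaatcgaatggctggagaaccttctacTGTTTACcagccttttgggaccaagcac
Sesn2: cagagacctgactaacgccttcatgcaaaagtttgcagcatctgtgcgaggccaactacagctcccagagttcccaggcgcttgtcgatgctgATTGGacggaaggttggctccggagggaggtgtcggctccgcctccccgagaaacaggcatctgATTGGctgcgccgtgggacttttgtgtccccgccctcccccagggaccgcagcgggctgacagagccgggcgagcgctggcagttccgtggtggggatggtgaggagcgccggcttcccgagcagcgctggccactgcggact

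In these windows G and C made up 80.0% of bases for Grb10, 75.3% for Grb14, 66.7% for Sesn1 and 64.7% for Sesn2. Motifs were searched on both strands, and no 2 matches overlapped in the windows shown. All matches in the windows shown lie on the other strand, so the capitals are the reverse complement of the motif named. The Sesn1 window holds a forkhead motif (GTAAACA) at bases 273 to 279, past the listed start, and a CCAAT box (CCAAT) at bases 54 to 58. The Sesn2 window holds 2 CCAAT boxes, at bases 94 to 98 and 158 to 162. The Grb10 and Grb14 windows hold none of the motifs searched, which also included the core of the C/EBP-ATF response element (TGATGNAA) and the E-box core CACGTG. RefSeq windows were matched for 44 of the 47 genes, 58 windows in all. The forkhead motif stood in 2 of these 58 windows (Akt1 and Sesn1) and in 3.65% of all 32817 windows, and the C/EBP-ATF core in 1 (Akt2) and in 3.97% of all. The E-box core stood in 5 windows (Eif4e, Igf2r, Irs1, Irs2 and Rheb) and in 7.15% of all, and the CCAAT box, a motif added after the data were seen, in 20 and in 37.4% of all. A match is a description of the sequence, not a binding site.

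Among the secreted members, the ligand gene Igf1 and Igfbp3 fell and Igfbp7 rose. Igf1, the growth factor made in muscle as well as in liver, had 80.9, 75.5 and 81.4 CPM in WT replicates 1 to 3 and 50.9, 51.3 and 66.1 CPM in mKO-labelled replicates 1 to 3. All 3 mKO-labelled values lay under the WT range (log2 -0.50, SE 0.12, adjusted p = 0.00676). Igfbp3, a carrier of IGFs in blood and tissue, fell from 12.9 ± 0.559 to 8.89 ± 0.515 CPM (SD, n = 3; log2 -0.54, SE 0.13, adjusted p = 0.00545). Neither call held with library totals (log2 -0.04 with adjusted p = 0.811 for Igf1, and -0.08 with 0.633 for Igfbp3; over all alternatives the adjusted p ran from 0.000795 to 0.811 and from 0.00241 to 0.633). Igfbp7, which binds IGFs weakly and is abundant in vessel walls, rose from 43.8 ± 1.53 to 55.5 ± 5.26 CPM (log2 0.34, SE 0.11, adjusted p = 0.0262). Exons of Polr2b share 7.03% of the listed bases of Igfbp7.

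The rise of Igfbp7 was the smallest called change among the 47 and did not hold without WT replicate 1 (adjusted p = 0.0931), WT replicate 3 (0.0701), mKO replicate 1 (0.0740) or mKO replicate 3 (0.128), within a range over alternatives of 7.95e-05 to 0.128. The other binding proteins did not pass. Igfbp5, which muscle fibres and their precursors make, had 184, 142 and 139 CPM in WT and 113, 215 and 177 CPM in mKO-labelled libraries, so that the mKO-labelled libraries spanned the whole WT range (log2 0.12, SE 0.20, adjusted p = 0.669). Igfbp4, an inhibitory binding protein, had 37.3 ± 7.73 and 41.2 ± 6.36 CPM (log2 0.14, adjusted p = 0.502), and Igfbp6, which prefers IGF2, had 47.1 ± 6.46 and 40.0 ± 6.93 CPM (log2 -0.23, adjusted p = 0.228; SD, n = 3).

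Markers of other cell types, which also make such secreted proteins, moved between the groups as well. In bulk tissue, fewer cells of a type and less RNA per cell cannot be told apart. All 8 macrophage markers rose, with a summed level of 268 to 319 CPM in WT and 555 to 917 CPM in mKO-labelled libraries. Of 8 endothelial markers 7 fell and none rose, with sums of 254 to 334 and 168 to 179 CPM. Of 8 fibro-adipogenic markers 2 rose (Col1a1 and Col3a1) and none fell, with sums of 1755 to 1905 and 2176 to 2463 CPM. Mean Col3a1 alone went from 488 CPM in WT to 1022 CPM in mKO-labelled libraries. The 6 others did not pass, among them Pdgfra (108 and 112 CPM) and Dcn (887 and 759 CPM). Of 7 mural cell markers 3 fell, with sums of 964 to 1128 and 606 to 711 CPM. Rgs5 made up much of these sums, with means of 581 and 258 CPM. Of 6 satellite cell markers 3 rose and 1 fell, of 5 tendon markers 2 rose, and no Schwann cell or adipocyte marker passed. No marker of these lists was at 0 counts. Their part in the changes of Igf1, Igfbp3 and Igfbp7 was not tested.

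**Figure D2:**
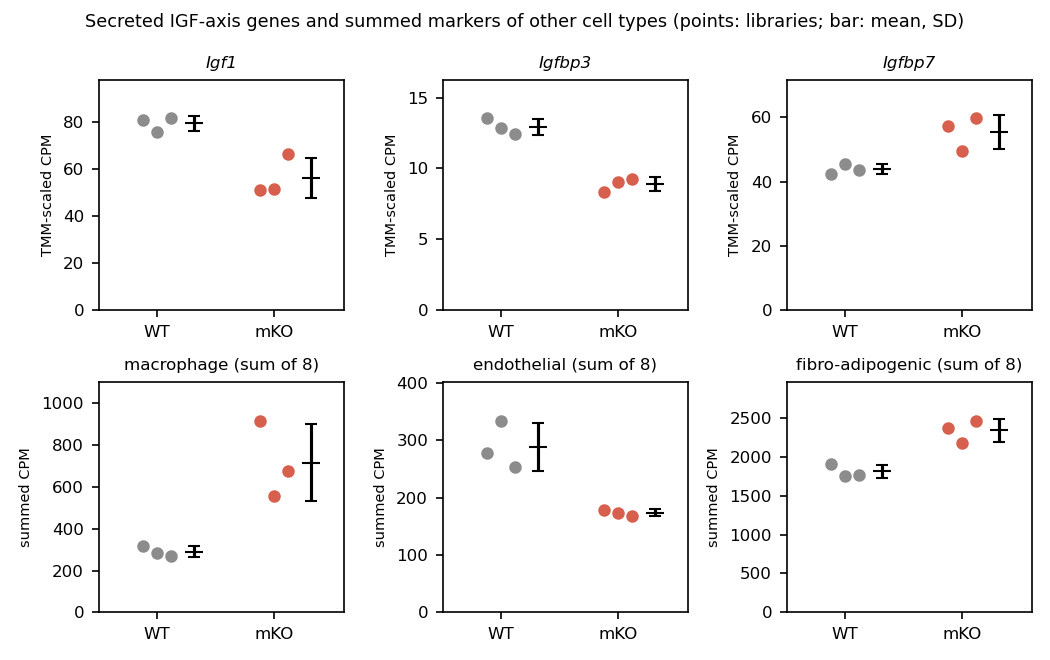
Levels (TMM-scaled CPM, y axes from 0) of Igf1, Igfbp3 and Igfbp7 above, and summed levels of 3 marker lists below, in each WT and mKO-labelled library; points are libraries and bars mean and SD. Igf1 and Igfbp3 are lower in every mKO-labelled library while macrophage marker sums are higher (555 to 917 against 268 to 319 CPM) and endothelial sums lower.

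Of the receptors, the IGF1 receptor gene rose, and the insulin receptor gene did not pass the test with TMM scaling but was called higher with library totals. Igf1r had 15.9, 17.5 and 14.6 CPM in WT and 24.3, 28.4 and 25.5 CPM in mKO-labelled libraries, with no overlap (log2 0.70, SE 0.12, adjusted p = 0.000645). Insr, the insulin receptor, had 115 ± 7.86 and 125 ± 10.3 CPM (SD, n = 3; log2 0.12, 95% interval -0.12 to 0.36, adjusted p = 0.434). Igf2r, the receptor that clears IGF2 and carries lysosomal enzymes, had 138 ± 7.57 and 142 ± 7.04 CPM (log2 0.04, 95% interval -0.19 to 0.26, adjusted p = 0.818). With library totals both were called higher, Insr with a log2 change of 0.58 (adjusted p = 0.000738, within a range over alternatives of 0.000738 to 0.741) and Igf2r with 0.50 (0.00179, within 0.00179 to 0.989). Per kilobase of exon, the insulin receptor transcript stood 8.76-fold above that of Igf1r in WT and 5.84-fold above it in mKO-labelled libraries.

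The adaptors that restrain the insulin receptor changed places. Grb14 and Grb10 are related proteins that bind the active insulin and IGF1 receptors and inhibit them, and Grb10 is an imprinted gene. Grb14 (GRCm38 chromosome 2, 64912476 to 65024987, minus strand) had 52.5, 62.8 and 62.7 CPM in WT and 15.1, 11.3 and 13.6 CPM in mKO-labelled libraries. Every mKO-labelled value lay far under the lowest WT value (log2 -2.16, SE 0.13, adjusted p = 3.4e-07), a 4.46-fold fall. Grb10 (chromosome 11, 11930508 to 12038683, minus strand) had 42.8, 45.0 and 39.2 CPM in WT and 105, 111 and 99.1 CPM in mKO-labelled libraries (log2 1.31, SE 0.11, adjusted p = 3.1e-06). These groups lay far apart as well, 2.49-fold by the fitted change. Within a library, the ratio of Grb10 to Grb14 per kilobase was 0.565 in the WT group and 6.29 in the mKO-labelled group.

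The receptor substrate genes moved unequally too. Irs2 had 19.8, 22.8 and 20.5 CPM in WT and 32.4, 32.4 and 36.9 CPM in mKO-labelled libraries, with no overlap (log2 0.69, SE 0.11, adjusted p = 0.000465). Irs1, the main substrate in muscle, had 148 ± 12.7 and 132 ± 6.97 CPM (SD, n = 3; log2 -0.16, 95% interval -0.40 to 0.08, adjusted p = 0.271). Of the listed exon bases of Irs1, 30.9% also belong to exons of another gene, Gm9747, so its count is uncertain. In WT Irs1 stood 4.85-fold above Irs2 per kilobase, and in mKO-labelled libraries 2.69-fold.

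**Figure D3:**
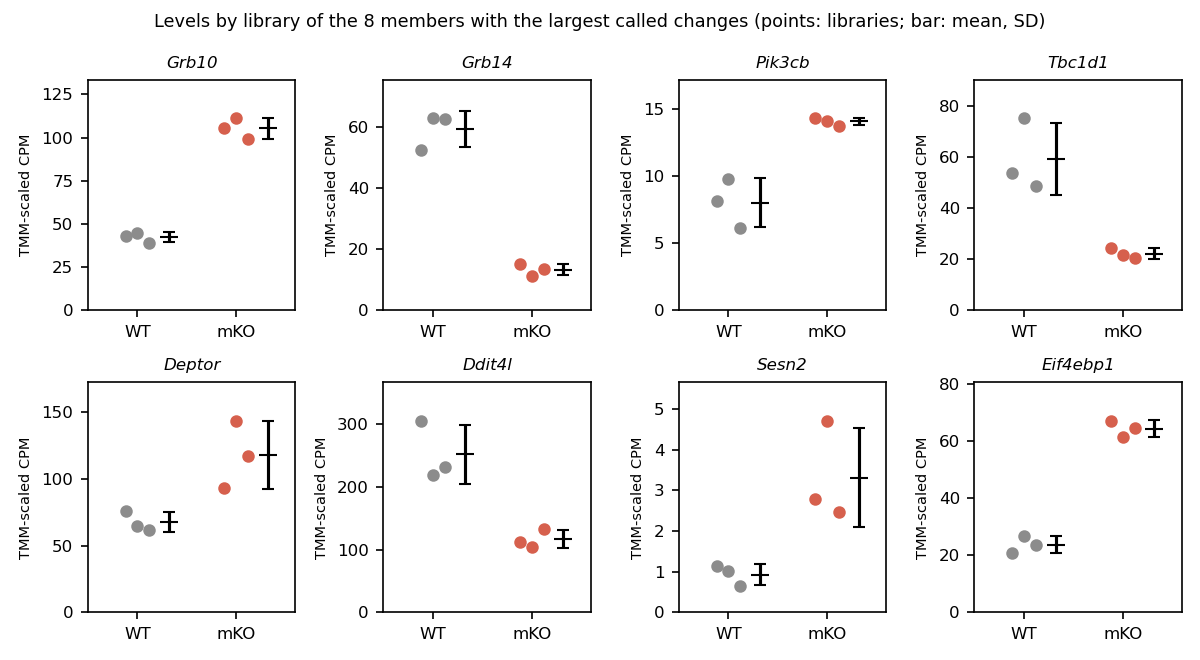
Level (TMM-scaled CPM, y axes from 0) in each library of the 8 members that passed the test with an absolute log2 change of at least 0.8; points are libraries and bars mean and SD. The groups do not overlap in any panel, with Grb14 at 52.5 to 62.8 CPM in WT and 11.3 to 15.1 CPM in mKO-labelled libraries.

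In the PI3K and Akt tier, Pik3cb and Akt1 rose, while the more abundant Pik3ca and Akt2 did not pass. Pik3cb, the catalytic subunit p110 beta (chromosome 9, 99036654 to 99140621, minus strand), had 8.12, 9.75 and 6.15 CPM in WT and 14.3, 14.1 and 13.7 CPM in mKO-labelled libraries. The groups were well separated, and the mKO-labelled libraries were close to each other (log2 0.81, SE 0.16, adjusted p = 0.00191). Akt1, the Akt form linked to growth, had 33.7, 24.2 and 23.3 CPM in WT and 39.7, 35.0 and 33.0 CPM in mKO-labelled libraries. WT replicate 1 lay inside the mKO-labelled range (log2 0.41, SE 0.15, adjusted p = 0.0417). That call was lost without WT replicate 2 (adjusted p = 0.111), WT replicate 3 (0.166), mKO replicate 1 (0.152), mKO replicate 2 (0.0712) or mKO replicate 3 (0.0607), within a range over alternatives of 0.000413 to 0.166.

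Pik3ca, the catalytic subunit p110 alpha through which insulin mainly acts, had 183 ± 17.9 and 188 ± 11.1 CPM (SD, n = 3; log2 0.04, 95% interval -0.20 to 0.29, adjusted p = 0.796). Akt2, the form linked to glucose uptake, had 203 ± 21.7 and 192 ± 17.5 CPM (log2 -0.08, 95% interval -0.34 to 0.18, adjusted p = 0.636). Pdpk1, which encodes the kinase PDK1 that phosphorylates Akt, had 103 ± 7.59 and 104 ± 1.72 CPM (log2 0.01, adjusted p = 0.928). The regulatory subunit genes Pik3r1 (71.5 ± 5.84 and 58.3 ± 5.98 CPM, log2 -0.29, adjusted p = 0.0657) and Pik3r3 (17.6 ± 1.09 and 16.5 ± 2.66 CPM, log2 -0.09, adjusted p = 0.645) did not pass either, although the groups of Pik3r1 did not overlap. Exons of Pik3r3 share 24.3% of their bases with Gm49337.

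Among the phosphatase genes, the 2 inositol phosphatases moved apart. Inppl1 encodes SHIP2, which removes a phosphate from the lipid product of PI3K, and had 55.4, 59.1 and 46.8 CPM in WT and 83.9, 81.3 and 85.2 CPM in mKO-labelled libraries (log2 0.63, SE 0.11, adjusted p = 0.000912). Its groups did not overlap; 20.3% of its listed exon bases are shared with Gm10602 and Phox2a. Inpp5k, a related phosphatase expressed in muscle, fell from 36.5 ± 2.75 to 27.0 ± 2.09 CPM (SD, n = 3; log2 -0.44, SE 0.11, adjusted p = 0.00805). That call was lost with library totals (log2 0.03, adjusted p = 0.831) and without mKO replicate 3 (adjusted p = 0.0546), within a range over alternatives of 0.00362 to 0.831. Phlpp1, an Akt phosphatase gene, had 12.2 ± 1.25 and 9.84 ± 0.899 CPM (log2 -0.31, adjusted p = 0.0967), and its paralog Phlpp2 5.29 ± 0.688 and 6.32 ± 0.400 CPM (log2 0.25, adjusted p = 0.249). The groups of Phlpp1 and of Phlpp2 did not overlap, in opposite directions. Ppp2r5c, a regulatory subunit of protein phosphatase 2A, had 53.8 ± 12.9 and 50.5 ± 0.245 CPM (log2 -0.09, adjusted p = 0.666).

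Of the Akt substrates of glucose handling, Tbc1d1 changed most. TBC1D1 and TBC1D4 hold glucose transporters inside the cell until they are phosphorylated, and TBC1D1 is the form prominent in fast fibres. Tbc1d1 (chromosome 5, 64156305 to 64351486, plus strand) had 53.9, 75.2 and 48.6 CPM in WT and 24.5, 21.6 and 20.5 CPM in mKO-labelled libraries. The lowest WT value lay well above the highest mKO-labelled value (log2 -1.41, SE 0.16, adjusted p = 2.41e-05; 2.67-fold lower). Tbc1d4 had 62.4 ± 8.15 and 56.4 ± 11.4 CPM (SD, n = 3; log2 -0.15, 95% interval -0.48 to 0.18, adjusted p = 0.484).

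The paralogs of glycogen synthase kinase 3, which Akt inhibits, went in opposite directions. Gsk3b rose from 71.8 ± 0.809 to 94.0 ± 6.93 CPM (SD, n = 3; log2 0.39, SE 0.11, adjusted p = 0.0117). Gsk3a fell from 14.0 ± 2.52 to 10.3 ± 0.484 CPM (log2 -0.44, SE 0.15, adjusted p = 0.0350), and exons of 9130221H12Rik share 28.3% of its listed bases. The call for Gsk3a was lost with library totals (log2 0.03, adjusted p = 0.892), with upper-quartile factors (0.0683), and without WT replicate 1 (0.157), WT replicate 3 (0.0613), mKO replicate 1 (0.0826), mKO replicate 2 (0.106) or mKO replicate 3 (0.0777), within a range over alternatives of 0.00879 to 0.892.

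In the mTOR complexes, the gene of the inhibitor DEPTOR and that of the mTORC1 scaffold Raptor rose, and Mtor itself did not pass. Deptor (chromosome 15, 55112317 to 55259271, plus strand), whose product binds and inhibits mTOR, had 76.2, 64.7 and 62.1 CPM in WT and 93.1, 144 and 117 CPM in mKO-labelled libraries. The groups did not overlap, and mKO replicate 2 was highest (log2 0.80, SE 0.15, adjusted p = 0.00129). Rptor rose from 20.4 ± 2.92 to 27.0 ± 2.58 CPM (SD, n = 3; log2 0.41, SE 0.13, adjusted p = 0.0283), a call that was lost without WT replicate 1 (adjusted p = 0.0578), WT replicate 3 (0.116), mKO replicate 2 (0.110) or mKO replicate 3 (0.0744), within a range over alternatives of 0.000163 to 0.116. Mtor, the kinase of both complexes, had 36.3 ± 5.55 and 38.7 ± 5.44 CPM (log2 0.09, 95% interval -0.20 to 0.39, adjusted p = 0.639). Rictor, the scaffold of mTORC2, had 58.2 ± 5.85 and 47.5 ± 3.02 CPM with no overlap (log2 -0.29, adjusted p = 0.0579); it was called lower without WT replicate 2 (adjusted p = 0.0138, within a range of 0.0138 to 0.218).

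Of the 7 genes of the TSC complex, Rheb and the brakes on mTORC1 that stress induces, 2 rose and 1 fell (42.9%, against 37.0% of all genes). Sesn2 encodes sestrin 2, a leucine sensor induced by stress that inhibits mTORC1, and lies on chromosome 4 from 132492032 to 132510501 (minus strand). It had 1.14, 1.01 and 0.643 CPM in WT and 2.78, 4.71 and 2.46 CPM in mKO-labelled libraries. From this low level it rose without overlap (log2 1.84, SE 0.32, adjusted p = 0.000658), on 90 counts over the WT libraries and 427 over the mKO-labelled ones. Sesn1, the related sestrin that is abundant in muscle, had 32.4, 25.7 and 29.0 CPM in WT and 45.5, 44.3 and 49.4 CPM in mKO-labelled libraries (log2 0.68, SE 0.12, adjusted p = 0.000615). Per kilobase, Sesn1 still stood 12.7-fold above Sesn2 in mKO-labelled libraries, against 27.9-fold in WT.

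Ddit4l fell while its paralog Ddit4 did not pass. Both encode REDD proteins, which restrain mTORC1 through the TSC complex, and Ddit4l is the form prominent in skeletal muscle. Ddit4l (chromosome 3, 137621612 to 137628333, plus strand) had 305, 219 and 230 CPM in WT and 113, 105 and 133 CPM in mKO-labelled libraries. The ranges were far apart (log2 -1.10, SE 0.15, adjusted p = 9.29e-05; 2.15-fold lower). Ddit4 had 8.08, 2.30 and 4.90 CPM in WT and 7.62, 6.85 and 6.99 CPM in mKO-labelled libraries, so the WT libraries spread around the mKO-labelled ones (log2 0.50, SE 0.32, adjusted p = 0.242). Without WT replicate 1 Ddit4 was called higher (log2 0.98, adjusted p = 0.0132, within a range of 0.0132 to 0.636), and so it was with no low-count filter (adjusted p = 0.0424).

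The TSC complex genes Tsc1 (63.6 ± 3.66 and 57.8 ± 4.53 CPM, log2 -0.14, adjusted p = 0.343) and Tsc2 (35.1 ± 5.15 and 42.4 ± 5.24 CPM, log2 0.27, adjusted p = 0.127) did not pass. Rheb, the small GTPase that activates mTORC1, had 72.8 ± 5.52 and 60.3 ± 2.87 CPM with no overlap (SD, n = 3; log2 -0.27, adjusted p = 0.0653). Without WT replicate 2, Tsc2 was called higher (adjusted p = 0.0318, within a range of 0.000559 to 0.389) and Rheb lower (0.0236, within 0.0236 to 0.177). Exons of Pkd1 share 9.61% of the listed bases of Tsc2.

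Of the 3 amino acid sensing genes, Rragd fell and Flcn rose. Rragd encodes the Rag GTPase RagD, and folliculin, the product of Flcn, acts on RagC and RagD. Rragd had 508, 444 and 554 CPM in WT and 299, 284 and 287 CPM in mKO-labelled libraries, with no overlap (log2 -0.79, SE 0.11, adjusted p = 0.000188). Per kilobase it was the most abundant of the 47 transcripts in both groups, at 97.0 and 56.1 CPM per kilobase. Flcn rose from 43.6 ± 2.81 to 56.5 ± 4.90 CPM (SD, n = 3; log2 0.37, SE 0.11, adjusted p = 0.0176), a call lost without WT replicate 3 (adjusted p = 0.0633) or mKO replicate 1 (0.0742), within a range of 8.31e-05 to 0.0742. Castor1, an arginine sensor gene, was near the low end of detection at 0.786 ± 0.0432 and 0.822 ± 0.163 CPM (log2 0.07, 95% interval -0.67 to 0.81, adjusted p = 0.894), and no difference was detectable at this depth.

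Among the outputs to translation, the 4E-BP1 gene rose and the S6 kinase gene fell. Eif4ebp1 (chromosome 8, 27260329 to 27276674, plus strand) encodes 4E-BP1, which holds the cap-binding protein eIF4E inactive until mTORC1 phosphorylates it. It had 20.9, 26.7 and 23.6 CPM in WT and 67.1, 61.4 and 64.4 CPM in mKO-labelled libraries. Every mKO-labelled value was over 2-fold above the highest WT value (log2 1.44, SE 0.12, adjusted p = 2.64e-06; 2.71-fold by the fit). Rps6kb1, which encodes the S6 kinase S6K1, had 79.2, 79.8 and 89.4 CPM in WT and 49.3, 57.7 and 58.9 CPM in mKO-labelled libraries. These groups did not overlap (log2 -0.58, SE 0.11, adjusted p = 0.00154), but with library totals the call was lost (log2 -0.12, adjusted p = 0.372, within a range over alternatives of 1.51e-05 to 0.372).

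Eif4ebp2, the related 4E-BP2 gene, had 7.78 ± 1.75 and 10.6 ± 1.64 CPM (SD, n = 3; log2 0.45, SE 0.18, adjusted p = 0.0742), and WT replicate 2 lay inside the mKO-labelled range. It was called higher without WT replicate 2 (adjusted p = 0.0285), with upper-quartile factors (0.0466) and with no low-count filter (0.0360), within a range of 0.00131 to 0.266. Eif4e, the cap-binding protein itself, had 117 ± 16.7 and 94.4 ± 6.95 CPM (log2 -0.31, adjusted p = 0.0663), and was called lower without WT replicate 1 (adjusted p = 0.0322, within a range of 0.0322 to 0.306).

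A ratio of related genes within a library does not depend on how libraries are scaled, and 15 such pairs of the 47 were compared as log2 ratios of counts per kilobase. An exact two-sided permutation test of 3 against 3 libraries cannot give a p below 0.1, and adjusted over 15 pairs the smallest value was 0.115. The Grb10 to Grb14 ratio had log2 values of -0.64, -0.82 and -1.02 in WT and 2.47, 2.96 and 2.53 in mKO-labelled libraries. These differed by 3.48 on the log2 scale, an 11.1-fold shift that reversed which adaptor was the more abundant (exact permutation p = 0.1). The Ddit4 to Ddit4l ratio rose by 1.76, with log2 means of -5.00 ± 0.697 and -3.23 ± 0.200 (SD, n = 3), so that Ddit4l stayed far more abundant. The Eif4ebp1 to Eif4ebp2 ratio was 2.52 in WT and 4.97 in mKO-labelled libraries, and that of Rptor to Rictor 0.241 and 0.393.

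Other ratios fell. That of Tbc1d1 to Tbc1d4 went from 0.972 to 0.413, that of Sesn1 to Sesn2 from 27.9 to 12.7 and that of Inpp5k to Inppl1 from 0.76 to 0.36. Gsk3a to Gsk3b went from 0.654 to 0.373, Irs1 to Irs2 from 4.85 to 2.69, Pik3ca to Pik3cb from 18.3 to 10.6 and Insr to Igf1r from 8.76 to 5.84. The ratio of Phlpp1 to Phlpp2 fell from 2.90 to 1.94 and that of Tsc1 to Tsc2 from 0.928 to 0.696, both between genes that did not pass on their own. For each of these 13 pairs the 6 libraries separated by group (exact permutation p = 0.1). How often ratios of other gene pairs separate was not computed, and 49.3% of all genes tested did so singly. The ratios of Pik3r1 to Pik3r3 (2.14 and 1.87, exact permutation p = 0.3) and of Akt1 to Akt2 (0.229 and 0.325, exact permutation p = 0.2) overlapped between groups.

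**Figure D4:**
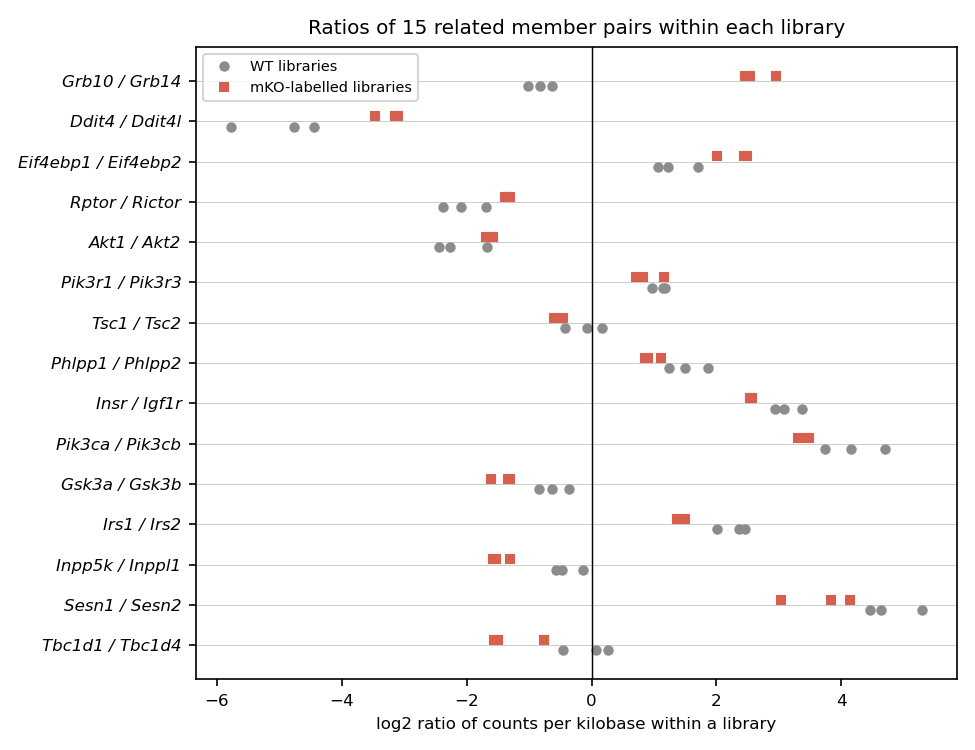
Log2 ratio of counts per kilobase (x axis) of 15 pairs of related members within each WT library (circles) and each mKO-labelled library (squares), ordered by the difference between group means. The Grb10 to Grb14 ratio lies below zero in every WT library and above 2 in every mKO-labelled library; the pairs Pik3r1 to Pik3r3 and Akt1 to Akt2 overlap.

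A further 84 genes of the chain were taken by role, also with earlier results of these data known. Of the 81 tested, 16 rose and 19 fell, 35 in all (43.2%, against 37.0% of all genes), with a median log2 change of 0.03. Leaving out WT replicate 3 lowered the number called higher from 16 to 10, and leaving out mKO replicate 3 lowered it to 9. With library totals 46 were called higher and 4 lower, and of the 19 that fell those 4 (Igfals, Sgk1, Eef2k and Slc2a4) were still called lower. Of 3 other TSC and sestrin genes Tbc1d7, named after its values were seen, passed as lower (adjusted p = 0.0484); the call was lost with limma-voom (0.0608), library totals (0.48) upper-quartile factors (0.0699), a filter of at least 1 CPM in 3 libraries (0.056) and removal of mitochondrial and the 10 most abundant genes (0.0503), and without WT replicate 2 (0.19), WT replicate 3 (0.132), mKO replicate 1 (0.174) or mKO replicate 3 (0.0817), within a range of 0.000557 to 0.48. Of 5 tested ligand and carrier genes 2 rose and 1 fell (60.0%, against 37.0% of all genes). Igf2, the fetal growth factor, rose from 12.1 ± 3.37 to 63.4 ± 16.5 CPM (SD, n = 3; log2 2.38, SE 0.21, adjusted p = 4.96e-06). Stc2, whose product stanniocalcin 2 inhibits the protease that frees IGFs from binding proteins, rose from 1.10 ± 0.446 to 8.75 ± 0.879 CPM (log2 3.00, SE 0.27, adjusted p = 4.5e-06). Igfals, the subunit that stabilises circulating IGF complexes, fell from 1.18 ± 0.462 to 0.379 ± 0.0925 CPM (log2 -1.63, SE 0.41, adjusted p = 0.00803). Igfbp1 had 0 counts in all 6 libraries, and Igfbp2 and Eif4ebp3 were too low to be tested.

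Of 12 other adaptors and receptor regulators 6 rose and 1 fell (58.3%, against 37.0% of all genes), and the lower call was lost with library totals. Socs3, a feedback inhibitor of cytokine and insulin signalling, rose from 2.90 ± 0.823 to 12.8 ± 2.79 CPM (SD, n = 3; log2 2.14, SE 0.22, adjusted p = 1.37e-05), and Trib3, a stress-induced pseudokinase that binds Akt, from 0.503 ± 0.249 to 2.83 ± 0.364 CPM (log2 2.51, SE 0.35, adjusted p = 0.00015). Sgk1, a kinase related to Akt, fell from 104 ± 13.3 to 37.6 ± 2.5 CPM (log2 -1.46, SE 0.12, adjusted p = 3.25e-06). Inpp5d, which encodes the blood cell phosphatase SHIP1, rose from 4.44 ± 0.226 to 10.4 ± 0.872 CPM (log2 1.22, SE 0.15, adjusted p = 5.29e-05), alongside the macrophage markers given above, whose part in it was not tested.

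Of 24 genes of the Rag GTPases, the Ragulator and GATOR complexes and lysosomal sensing, 7 fell and 2 rose (37.5%, against 37.0% of all genes). With library totals all 7 lower calls were lost (adjusted p of 0.0585 to 0.657). Rragb, a Rag GTPase gene, fell from 2.15 ± 0.0812 to 1.00 ± 0.389 CPM (SD, n = 3; log2 -1.09, SE 0.30, adjusted p = 0.0133). Its call was lost without mKO replicate 3 (adjusted p = 0.0590) and with library totals (0.108), within a range of 0.0028 to 0.108. Of 7 other mTOR complex genes 1 rose and 1 fell (28.6%, against 37.0% of all genes), and the lower call was lost with library totals. The riser Prr5l had 0.287 ± 0.201 and 0.930 ± 0.235 CPM (log2 1.66, SE 0.52, adjusted p = 0.0254). Prr5l was not called without WT replicate 1 (adjusted p = 0.0593), WT replicate 3 (0.0596), mKO replicate 2 (0.0511) or mKO replicate 3 (0.0938), within a range of 0.00279 to 0.0938. Of 7 tested translation genes 1 rose and 1 fell (28.6%, against 37.0% of all genes). The riser was not called without WT replicate 2, mKO replicate 1 or mKO replicate 3 (adjusted p of 0.0728 to 0.105). The gene that fell was Eef2k, the kinase that slows elongation (58.0 ± 2.00 to 19.7 ± 3.15 CPM, log2 -1.56, SE 0.13, adjusted p = 2.51e-06). Of 8 Akt-linked outputs 4 fell and 1 rose (62.5%, against 37.0% of all genes). With library totals, however, the lower calls of Foxo4 (adjusted p = 0.432), Fbxo32 (0.863) and Trim63 (0.161) were lost. Slc2a4, the insulin-regulated glucose transporter, fell from 273 ± 18.5 to 143 ± 7.20 CPM (log2 -0.94, SE 0.11, adjusted p = 3.6e-05), a call that held with library totals (0.00339). These 4 were chosen after their values were seen.

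**Figure D5:**
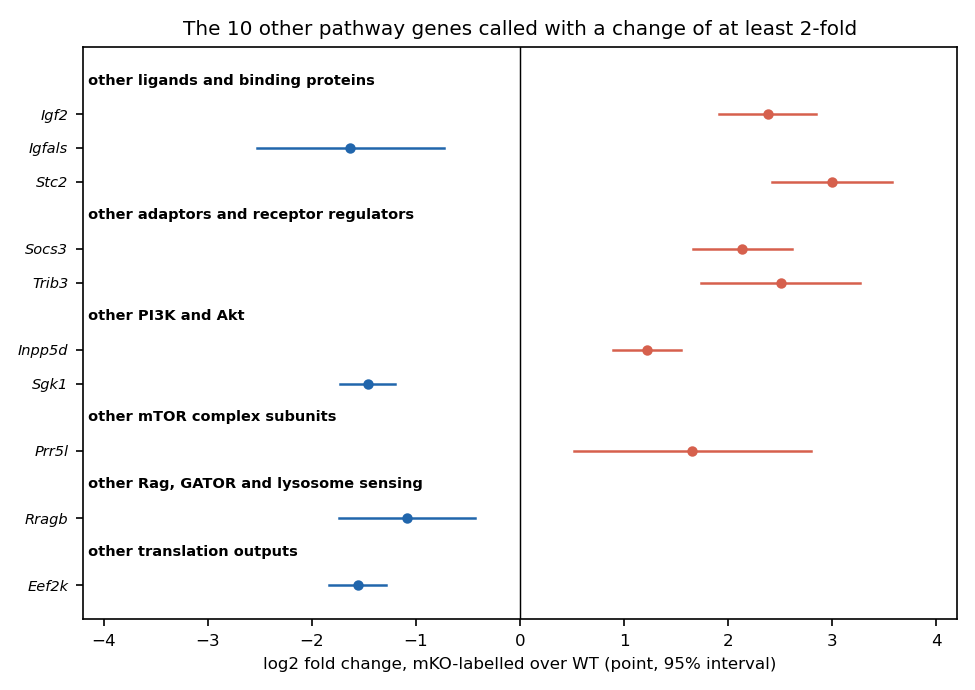
Log2 fold change (mKO-labelled over WT, x axis) with its 95% interval of the 10 other pathway genes that passed the test with an absolute log2 change of at least 1, grouped by role. Stc2 (3.00), Trib3 (2.51) and Igf2 (2.38) lie farthest to the right, and Igfals (-1.63), Eef2k (-1.56) and Sgk1 (-1.46) farthest to the left.

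Per kilobase of exon, Rragd (97.0), Ddit4l (86.2), Igfbp6 (42.3) and Igfbp7 (36.2 CPM per kilobase) led in WT, and Rragd (56.1), Igfbp7 (45.9), Ddit4l (40.1) and Igfbp6 (36.0 CPM per kilobase) in mKO-labelled libraries. Sesn2 was lowest in WT at 0.268 CPM per kilobase, and Castor1 lowest in mKO-labelled libraries at 0.522. Eif4ebp1 stood at 10.8 CPM per kilobase in WT and at 29.3 in mKO-labelled libraries. Of the 24 members that did not pass with TMM scaling, 19 had a 95% interval of the change that stayed within 1.5-fold in either direction. These intervals carry no uncertainty of scaling, and with library totals 30 members were called higher, against 14. The exons of 36 members share no base with another listed gene, and 6 members share over 5% of theirs.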

How the data were processed

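RNA of frozen gastrocnemius was extracted with Trizol and made into libraries with the NEBNext Ultra RNA kit, per the labels' protocols. The deposited values are raw counts per Ensembl gene, 1 table per library. Per the submitters' processing notes, the authors' tools were STAR 2.5.2b, featureCounts from Subread 1.5.2, and Trimmomatic 0.36, with GRCm38 as the build. The sources used here do not give the strand setting or how multimapping reads were counted, so reads in exons shared between genes are uncertain. Genes were matched to symbols by identifier, and groups came from the sample titles. Counts were tested with edgeR 4.0.16 in R 4.3.3 (TMM, default expression filter, quasi-likelihood test, group as the only term). CPM per kilobase divides by the listed exon length. The fit was also run on simulated data in which equal numbers of genes rose and fell. That run does not bear on the choice of scaling, and its outcome is not given here. Replicates differed beyond sampling noise (chi-square per degree of freedom 20.9 to 57.7). Every member is given. Those called with an absolute log2 change of at least 0.8 are given by library, and other pathway genes are named at a called absolute log2 change of at least 1, with exceptions marked in the text. Promoters were to be shown for up to 4 of the largest called changes; Sesn1, 12th by size, was shown as the pair of Sesn2, chosen after its value was seen. Members and lists were chosen with earlier results of these data known. Alternatives were DESeq2 1.42.0, limma-voom (limma 3.58.1), other scalings and filters, a replicate block and leaving out each library. One other pathway gene is not reported here, though list counts include it.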

Additional observations from a re-analysis of the deposited data

How the results depend on the processing

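The counts of members called kept within 1.5 times under DESeq2, limma-voom, RLE and upper-quartile factors, both other filters, removal of mitochondrial and the 10 most abundant genes, and the replicate block. Of 23 called members, 14 were called the same way under every alternative run. Library totals had the largest effect: 9283 genes were called against 6166, 30 members were called higher against 14 and 4 lower against 9, and 46 and 4 other pathway genes were called higher and lower against 16 and 19. All 14 members called higher and 4 called lower (Grb14, Tbc1d1, Ddit4l, Rragd) were still called so. With library totals the direction of these members turned: Igfbp6 (0.23), Irs1 (0.30), Pik3r1 (0.17), Pik3r3 (0.38), Akt2 (0.39), Phlpp1 (0.15), Ppp2r5c (0.38), Inpp5k (0.03), Gsk3a (0.027), Tbc1d4 (0.32), Rictor (0.17), Tsc1 (0.33), Rheb (0.19) and Eif4e (0.15); the cause was not tested.

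With each library left out in turn, 4766 to 6255 genes, 10 to 15 members higher and 7 to 11 lower, and 9 to 14 other pathway genes higher and 14 to 18 lower were called. Members that turned direction without 1 library had changes near zero, with ranges of -0.09 to 0.34 for Igfbp5, -0.029 to 0.112 for Pik3ca, -0.041 to 0.064 for Pdpk1, -0.143 to 0.005 for Akt2, -0.20 to 0.12 for Ppp2r5c, -0.256 to 0.011 for Tbc1d4, -0.024 to 0.218 for Mtor and -0.10 to 0.15 for Castor1, which was not tested with the filter of at least 1 CPM in 3 libraries. The replicate numbers did not pair the samples: the deviations of same-numbered libraries from their group means correlated at 0.0185, -0.00202 and 0.0224. With the replicate block 5519 genes, 14 members higher and 9 lower, and 16 and 17 other pathway genes were called; Igfbp7 was not called (adjusted p = 0.0541) and Eif4ebp2 was (0.0397). Depth limits Castor1 and Sesn2, with as few as 23 counts in a library.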
